A study of Mus musculus with 6 samples.

Results

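The S100 proteins are a family of small calcium-binding proteins, and 8 of their genes were followed in macrophages cultured with cartilage fragments: S100a1, S100a4, S100a6, S100a8, S100a9, S100a10, S100a11 and S100a13. They were taken by symbol, 8 of the 24394 gene symbols in the files, and all 8 passed a filter that asked for 1 FPKM on average (fragment numbers corrected for transcript length and library depth). Bone marrow-derived macrophages (BMMs) were grown from C57BL/6 mice at postnatal day 28 with macrophage colony-stimulating factor at 50 ng/ml for 7 days. In the stimulated group (3 cultures), 5 fragments of cartilage were added per macrophage and left for 24 h, and the control group (3 cultures) had none. The same mice gave the cartilage and the marrow, and the marrow cells passed through a monocyte isolation kit before culture. The methods call these mice male, whereas Xist lay between 19.8 and 23.6 FPKM in all 6 libraries and Uty, Kdm5d, Eif2s3y and Ddx3y of the Y chromosome were listed at 0. No source says that the replicates came from separate mice, so the p-values measure the spread between these samples, which may be technical.

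Most S100 proteins pair into dimers and carry a pair of EF-hand loops. On binding calcium they open a surface that grips a target protein inside the cell. In myeloid cells S100a8 and S100a9 join into calprotectin, an alarmin that is released in inflamed tissue, binds zinc and manganese and signals through Toll-like receptor 4 and the receptor for advanced glycation end products (RAGE, gene Ager). S100a4, S100a6, S100a10 and S100a11 act mainly on the cytoskeleton and on membranes through myosin, annexins and other partners.

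The libraries held an estimated 743000 to 776000 fragments in the control group and 699000 to 754000 in the stimulated group. These estimates come from the deposited coverage and FPKM. The methods of the study state a far larger number of reads per sample, and the reason for the gap was not tested. The 8 genes together took 0.524% to 0.533% of the FPKM of a control library and 0.489% to 0.517% of a stimulated one. Macrophage markers were high, with Lyz2 at 26780 to 37370 FPKM, Cd68 at 1089 to 1281 FPKM and Csf1r at 565 to 670 FPKM. The T and B cell list and the erythroid list were at 0, and the chondrocyte list summed to at most 3.28 FPKM, with Acan at 0 in 5 libraries. The bulk RNA cannot tell fewer cells of a type from less RNA per cell.

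No change of any of the 8 S100 genes with cartilage fragments was detectable at this estimated depth. S100a8, S100a10 and S100a11, 3 of 8 where 50.5% of all genes did so, had higher mean log2 values in the stimulated libraries, and S100a1, S100a4, S100a6, S100a9 and S100a13 had lower ones, all by less than 0.26 on the log2 scale. In limma 0 of 8 passed an adjusted p of 0.05, against 0.366% of the 10393 genes tested. At an unadjusted p of 0.05 the count was also 0, against 9.19% of genes, and the groups overlapped in all 8, whereas 15.9% of genes had groups without overlap. The adjusted p-values ran from 0.648 to 0.936. The 95% intervals of the log2 fold changes reached from -0.66 to 0.65, so in all 8 genes they left out a doubling and a halving.

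**Figure D1:**
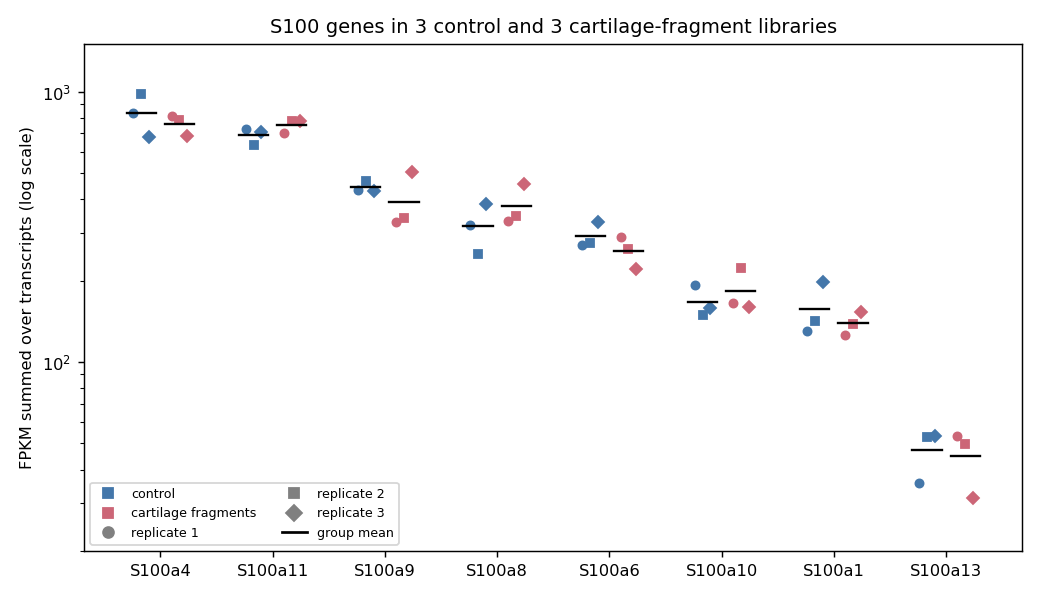
FPKM of the 8 S100 genes on a log axis, 1 point per library, with circles, squares and diamonds for replicates 1, 2 and 3 and a bar at the mean of each group. The groups overlap in every gene, and the levels fall from a mean of 795 FPKM for S100a4 to 46 FPKM for S100a13.

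S100a1, S100a13, S100a4, S100a6, S100a8 and S100a9 lie close together on mouse chromosome 3 and S100a11 and S100a10 lie farther along it. S100a1 was at chr3:90511034-90514330, S100a13 at chr3:90514435-90524581, S100a4 at chr3:90603770-90606045, S100a6 at chr3:90612894-90614414, S100a8 at chr3:90669071-90670034 and S100a9 at chr3:90692630-90695721 of mm10. The stretch from S100a1 to S100a10 spans 3054 kb and holds 70 gene symbols of the files, 14 of them S100 genes. Of the 56 others, mostly genes of the skin barrier such as the Sprr2 genes, 54 were listed at 0 in all 6 libraries and 0 reached the filter. Outside the stretch, the nearest tested genes were Chtop, 1.5 kb before S100a1 with a mean of 25.4 FPKM, and Them4, 746 kb beyond S100a10 with 1.96 FPKM.

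The family beyond these 8 genes was nearly silent. Of 18 S100 symbols listed, 17 were in the files and 9 passed the filter. S100a16, the ninth, was at 1.52, 0 and 1.59 FPKM in the control libraries and at 6.30, 0 and 0 in the stimulated ones. S100a2, S100a3, S100a5, S100a7a, S100a14, S100b, S100g and S100z were listed at 0 in every library.

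**Figure D2:**
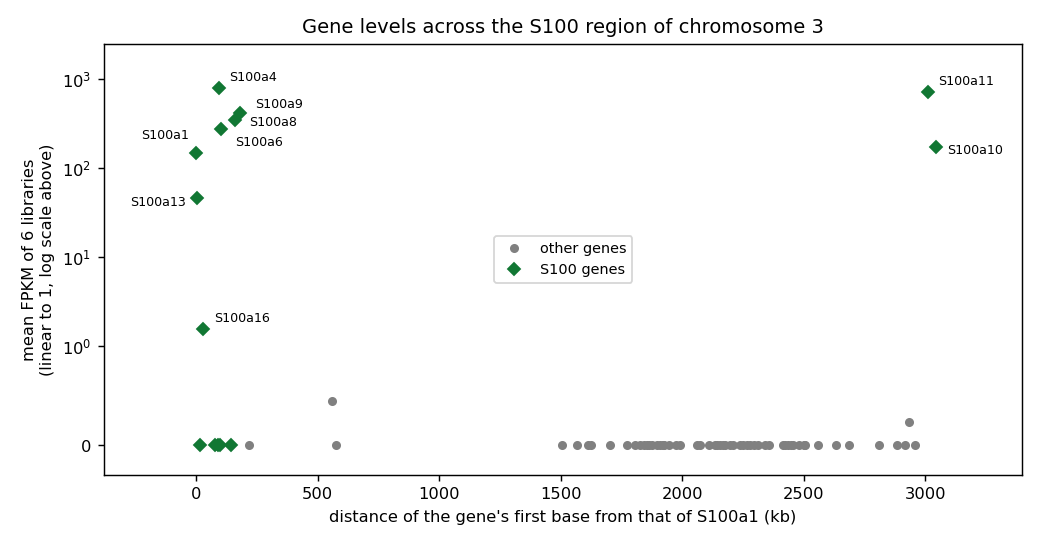
Mean FPKM over the 6 libraries (vertical axis, linear to 1 and logarithmic above) of every gene between S100a1 and S100a10, by the distance in kb of its first base from that of S100a1. The 8 S100 genes studied stand between 46 and 795 FPKM, and 54 of the 56 other genes sit at 0.

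The promoters of 4 members are shown because they mark the most abundant gene, both calprotectin genes and the stretch between the starts of S100a13 and S100a1. Each runs from 250 bases before to 50 bases after the start, from RefSeq (GRCm38.p6), 5′ to 3′ on the strand of the gene, with motif matches in capitals. The windows are chr3:90603520-90603819 (+) for S100a4, chr3:90668821-90669120 (+) for S100a8, chr3:90695672-90695971 (-) for S100a9 and chr3:90514185-90514484 (+) for S100a13.
S100a4: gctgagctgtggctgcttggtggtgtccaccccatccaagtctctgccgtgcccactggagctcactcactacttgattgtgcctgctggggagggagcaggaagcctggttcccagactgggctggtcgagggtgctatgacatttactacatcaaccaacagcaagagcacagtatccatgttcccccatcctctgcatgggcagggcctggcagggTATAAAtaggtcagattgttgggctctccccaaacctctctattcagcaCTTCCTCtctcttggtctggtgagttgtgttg
S100a8: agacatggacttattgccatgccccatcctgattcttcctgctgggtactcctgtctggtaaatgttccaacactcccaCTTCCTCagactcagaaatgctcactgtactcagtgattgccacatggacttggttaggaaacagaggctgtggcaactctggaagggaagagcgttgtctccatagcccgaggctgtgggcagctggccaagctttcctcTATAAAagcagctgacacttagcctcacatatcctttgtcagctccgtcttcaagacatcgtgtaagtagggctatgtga
S100a9: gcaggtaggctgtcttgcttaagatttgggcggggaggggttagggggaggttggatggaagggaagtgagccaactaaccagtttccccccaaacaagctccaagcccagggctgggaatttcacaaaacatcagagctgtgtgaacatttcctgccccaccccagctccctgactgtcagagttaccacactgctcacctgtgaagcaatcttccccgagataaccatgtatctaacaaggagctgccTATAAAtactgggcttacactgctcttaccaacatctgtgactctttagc
S100a13: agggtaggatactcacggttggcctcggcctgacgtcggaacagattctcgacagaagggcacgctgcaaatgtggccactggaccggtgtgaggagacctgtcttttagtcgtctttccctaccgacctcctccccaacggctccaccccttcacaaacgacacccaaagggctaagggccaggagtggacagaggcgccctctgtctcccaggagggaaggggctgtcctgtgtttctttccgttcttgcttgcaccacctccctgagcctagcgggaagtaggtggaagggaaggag

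A promoter was found for 7 of the 8 genes. The motifs searched on both strands were the TATA box (TATAAA), AP-1 (TGANTCA), C/EBP (TTGCNNNAA), PU.1 (GAGGAAG), NF-kB (GGGA and TCC with any 3 bases between) and STAT (TTCNNNGAA), and no match overlapped one of another motif. TATAAA stood in 3 of the 7 windows and in 13.6% of the 32851 promoters of the table. It began 31 bases before the start of S100a4, 30 bases before that of S100a8, and at the start base itself as the table places it for S100a9. The PU.1 letters, present in 13.6% of all promoters, were read on the opposite strand 171 bases before the start of S100a8 and 18 bases after that of S100a4. S100a11 alone held the AP-1 letters (7.81% of all promoters), with matches beginning 136 and 38 bases before its start. The windows of S100a1, S100a6 and S100a13 held none of the letters searched. C/EBP, NF-kB and STAT letters, found in 9.56%, 4.59% and 8.3% of all promoters, were in none of the 7 windows.

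S100a4, also called metastasin, binds the heavy chain of non-muscle myosin IIA and takes part in cell movement. It was the most abundant member, with 834, 981 and 677 FPKM in the control libraries and 809, 783 and 684 FPKM in the stimulated ones. Control replicate 2 stood highest and control replicate 3 lowest, with the stimulated libraries between them. The log2 fold change was -0.12 with a 95% interval of -0.42 to 0.18 (SE 0.13, adjusted p = 0.819). Without control replicate 2 it was 0.011, so that library alone set its sign. A second coding gene of GENCODE, Gm42674 (chr3:90601904-90605885 of GRCm38), overlaps S100a4 and holds 47.4% of its 50-base stretches, and its symbol was not in the files.

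S100a11 binds annexin A1 and helps to mend the plasma membrane. It had 729, 637 and 711 FPKM in the control libraries and 704, 779.5 and 779.9 FPKM in the stimulated ones. Stimulated replicates 2 and 3 stood above all controls, and stimulated replicate 1 stood among them. Its log2 fold change of 0.12 had a 95% interval of -0.04 to 0.29 (SE 0.071), the narrowest of the 8, and an adjusted p of 0.648. Counting of fragments alone gave a larger SE of 0.094. The log2 fold change had the same sign in all alternatives. It shrank to 0.066 without control replicate 2 and to 0.057 after quantile normalization. Centring each library within bins of transcript length, chosen after seeing the data, gave the lowest value, 0.055. Gm12854, a processed pseudogene of GENCODE on chromosome 4, holds 41.1% of the 50-base stretches of S100a11. The processed pseudogenes Gm7665 and Gm29240 hold 23.4% and 4.33%. Whether the paired 100-base reads tell these copies apart was not tested.

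S100a9 is the larger subunit of calprotectin. It was at 431, 469 and 429 FPKM in the control libraries and at 329, 341.5 and 502 FPKM in the stimulated ones. Stimulated replicates 1 and 2 lay below all 3 controls, and stimulated replicate 3 lay above them all. The log2 fold change was -0.21 with a 95% interval of -0.56 to 0.15 (SE 0.15, adjusted p = 0.731). Without stimulated replicate 3 it was -0.40 with an interval of -0.57 to -0.23, and the adjusted p was 0.149. Without stimulated replicate 1 it shrank to -0.096 (adjusted p = 0.893), and without stimulated replicate 2 to -0.12 (adjusted p = 0.877).

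S100a8, its partner, is the shortest transcript of the set. It was at 321, 250.1 and 382 FPKM in the control libraries and at 333, 345 and 454 FPKM in the stimulated ones. Control replicate 2 was lowest and stimulated replicate 3 highest, and control replicate 3 exceeded the other two stimulated libraries. The log2 fold change was 0.25 with a 95% interval of -0.15 to 0.65 (SE 0.17, adjusted p = 0.706), the largest shift of the 8. The value of control replicate 1 is the sum of the reference transcript at 233 FPKM and of a transcript that Cufflinks assembled at the same locus in that library at 87.9 FPKM. With reference transcripts alone the log2 fold change was 0.41 and the adjusted p 0.797. The shift also shrank to 0.11 without stimulated replicate 3 and to 0.093 without control replicate 2, and it grew to 0.40 without control replicate 3.

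The ratio of the calprotectin genes was compared within each library. S100a8 was at 0.745, 0.534 and 0.892 times the FPKM of S100a9 in the control libraries and at 1.01, 1.01 and 0.904 times in the stimulated ones. All 3 stimulated ratios exceeded all 3 control ratios, though the highest control ratio and the lowest stimulated ratio lay close together. The mean log2 ratio was -0.50 ± 0.38 (SD, n = 3) in the control group and -0.038 ± 0.093 in the stimulated group. In the exact two-sided permutation test p was 0.1, the smallest that 3 against 3 allows, and 0.5 after adjustment over the 5 ratios examined. Without control replicate 2 the difference of 0.46 fell to 0.26, and with reference transcripts alone it was 0.61.

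S100a9 has a pair of reference transcripts in the files, 524 and 521 bases long, and each library put all of its FPKM on one of them. The 521-base transcript held it in control replicate 2 and stimulated replicate 2, and the 524-base one in the other 4 libraries, so the choice did not follow the groups. GENCODE (GRCm38) lists a pair of S100a9 transcripts whose second exons differ by 3 bases at their start, 12 or 9 bases before the coding sequence on the minus strand of chromosome 3. Their junctions of the first and second exon are shown here because the pair has this small difference beside its own first-exon ends (bases 90695711 and 90695721), with the 3 extra bases in capitals. Whether the reference transcripts of the files differ at this same place was not tested.
second exon to base 90695297: tctttagccttgAAGagcaagaagatg
second exon to base 90695294: tctttagccttgagcaagaagatg

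Granulocyte genes were measurable beside the calprotectin pair. Of 12 neutrophil and granulocyte precursor genes, 11 were in the files and 7 passed the filter, and their sum was 328 to 351 FPKM in the control group and 288 to 390 FPKM in the stimulated group. Ngp, a neutrophil granule protein gene, was at 62.5, 50.5 and 75.3 FPKM in control and 47.9, 54.4 and 84.8 FPKM in stimulated libraries. Camp, the cathelicidin gene, was at 3.29, 10.3 and 27.5 FPKM in control and 20.7, 14.4 and 33.2 FPKM in stimulated libraries. Stimulated replicate 3, which was highest for S100a8 and S100a9, was also highest for Ngp, Camp, Retnlg (28.9 FPKM) and the receptor gene Csf3r (86.5 FPKM), 4 of the 7 tested genes. The other 3 did not peak there: Ltf, the lactoferrin gene, was at 23.4 FPKM (highest 34.3 in control replicate 3), Cxcr2 at 3.06 FPKM (highest 4.79 in control replicate 3) and Mmp8 at 129.9 FPKM, below every control. Mmp8 was lower without overlap in the stimulated group, at 116 to 130 against 132 to 170.1 FPKM (adjusted p = 0.410), and Ctsg, a precursor gene, was at 0 while Elane, Mpo and Prtn3 did not exceed 1.88 FPKM. The part of granulocyte RNA in the calprotectin values was not tested.

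S100a6, or calcyclin, binds the calcyclin-binding protein Cacybp, which links it to protein turnover. It was at 270.4, 276 and 329.8 FPKM in the control libraries and at 290, 261 and 220.3 FPKM in the stimulated ones. Control replicate 3 was highest and stimulated replicate 3 lowest, with the other 4 libraries close together. A log2 fold change of -0.19 was obtained, with a 95% interval of -0.46 to 0.09 (SE 0.12, adjusted p = 0.690). Its sign held in each of the 19 alternatives tried, which ranged from -0.28 to -0.080, with -0.080 without stimulated replicate 3 and -0.096 without control replicate 3.

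S100a10, or p11, is the member that has lost calcium binding, and it joins annexin A2 in a tetramer that also binds plasminogen at the cell surface. It was at 193, 149 and 158 FPKM in the control libraries and at 165, 222 and 160 FPKM in the stimulated ones. Stimulated replicate 2 stood above the rest and the other 2 stimulated libraries lay among the controls. On the log2 scale the change was 0.12 with a 95% interval of -0.22 to 0.47 (SE 0.15, adjusted p = 0.835), and -0.029 without stimulated replicate 2.

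S100a1 is best known as a regulator of calcium cycling in heart and skeletal muscle. In these macrophages it was at 129.8, 142 and 198 FPKM in the control libraries and at 126, 138 and 152.5 FPKM in the stimulated ones. Control replicate 3 stood above the other 5 libraries. On the log2 scale the change was -0.15 with a 95% interval of -0.53 to 0.22 (SE 0.16, adjusted p = 0.808), and 0.028 without control replicate 3.

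S100a13 takes part in the release of fibroblast growth factor 1 and interleukin 1 alpha, which lack a signal peptide. It was the lowest of the 8, at 35.7, 52.9 and 53.2 FPKM in the control libraries and 53.1, 49.8 and 31.3 FPKM in the stimulated ones. One library of each group was low and the other 4 were alike. The log2 fold change was -0.09 with a 95% interval of -0.66 to 0.47 (SE 0.24, adjusted p = 0.936), on 11 to 20 estimated fragments per library. Its sign turned without control replicate 2 (0.0019), without control replicate 3 (0.0055) and without stimulated replicate 3 (0.15).

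**Figure D3:**
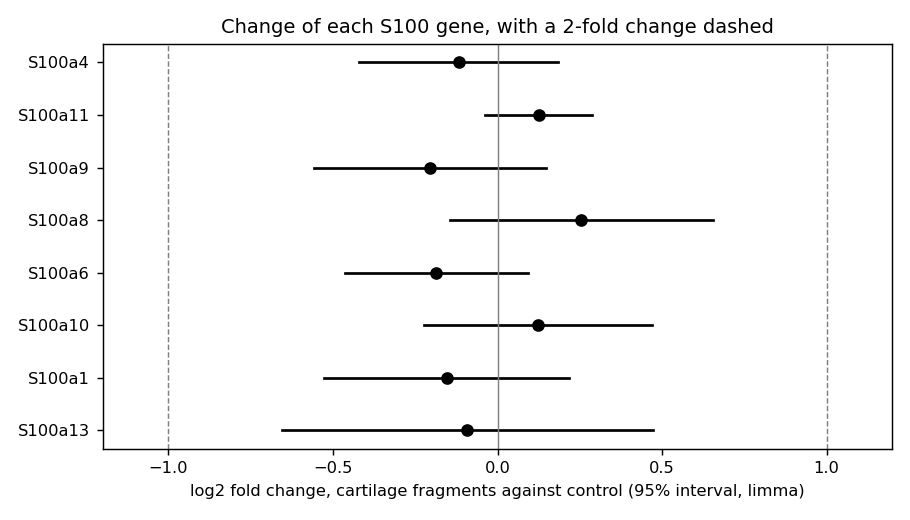
Log2 fold change of each S100 gene, stimulated against control, with its 95% interval from limma over 3 libraries a group and dashed lines at a 2-fold change. Every interval crosses 0 and lies inside the dashed lines, and the widest is that of S100a13 (-0.66 to 0.47).

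S100a1 and S100a13 are read away from each other from start sites 105 bases apart, and 204 of the 300 bases of their promoter windows are shared. S100a13 was at 0.275, 0.373 and 0.268 times the FPKM of S100a1 in the control libraries and 0.422, 0.361 and 0.205 times in the stimulated ones. The log2 ratios overlapped, with means of -1.73 ± 0.27 (SD, n = 3) and -1.67 ± 0.55, and the exact two-sided permutation test gave p = 0.9. The difference of 0.06 turned negative in 4 of the 6 sets that leave out a library. The neighbours S100a6 and S100a4 gave log2 ratios of -1.50 ± 0.41 and -1.57 ± 0.08 (exact permutation p = 0.9), and this difference of -0.07 became 0.16 without control replicate 3.

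**Figure D4:**
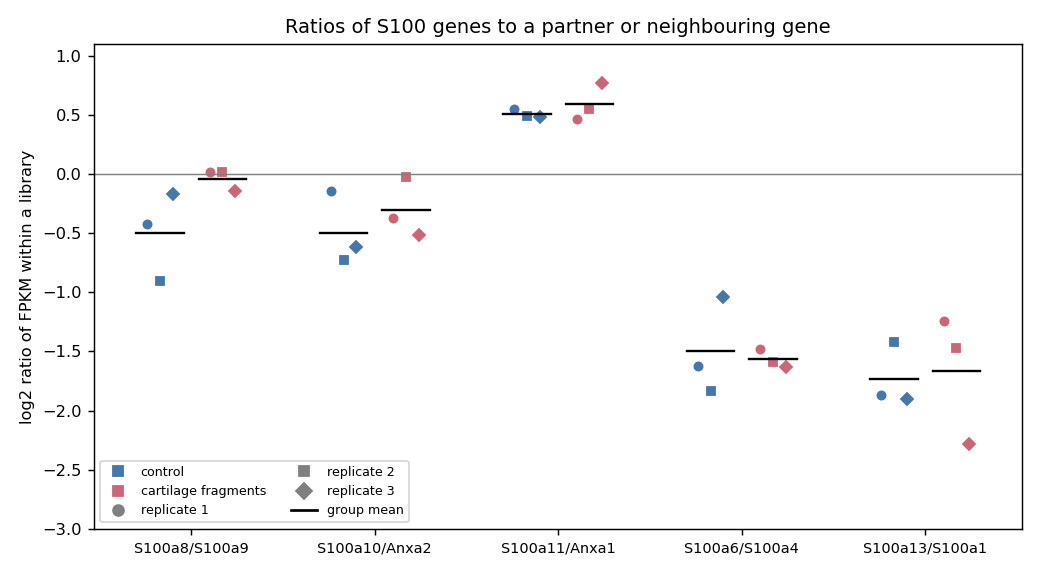
Log2 ratio of FPKM within each library for 5 gene pairs, 1 point per library and a bar at the mean of each group. Only S100a8 to S100a9 has groups without overlap, with control libraries at -0.91 to -0.16 and stimulated libraries at -0.15 to 0.02.

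The order of the levels was S100a4, S100a11, S100a9, S100a8, S100a6, S100a10, S100a1 and S100a13, from the 87th to the 1665th highest mean FPKM of all symbols and 17.3-fold from end to end. The steps from S100a11 to S100a9, from S100a6 to S100a10 and from S100a1 to S100a13 kept their direction in 6 of 6 libraries, with mean log2 ratios of 0.81, 0.66 and 1.70. S100a4 exceeded S100a11 in 4 libraries and S100a9 exceeded S100a8 in 4, so neither pair kept its order throughout. For S100a9 these were all the controls and stimulated replicate 3. S100a8 exceeded S100a6 in 5 libraries, as S100a10 did S100a1. The spread over the 6 libraries was least in S100a11, with a coefficient of variation of 7.42%, and largest in S100a13 with 21.5%. From the estimated fragments, counting alone gave an SE between 0.090 and 0.28 for the log2 fold changes, and the fitted SE lay between 0.071 and 0.24. In S100a1, S100a10, S100a11 and S100a13 the fitted SE was below the counting SE (0.071 against 0.094 in S100a11). The intervals of these genes may therefore be too narrow.

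The members did not move as a block across the libraries. Over the 6 libraries S100a8 and S100a4 ran opposite ways, with a Pearson correlation of -0.95 of their log2 values, and S100a8 and S100a9 had one of 0.13. These correlations describe 28 pairs over 6 points that share library depth, and they were not tested. Among 1503 other genes that averaged 50 FPKM or more, the closest patterns over the 6 libraries were Vps26a, Trf and Mrc1 for S100a1 (0.972 to 0.979), Rnf13, Gltscr2 and Nampt for S100a4 (0.936 to 0.990) and Ndufb3, Wsb2 and Snx9 for S100a6 (0.958 to 0.976). For S100a8 they were Copa, Lasp1 and Ndufs3 (0.916 to 0.968), and Tnfrsf1a and Picalm were among those for S100a9 (0.923 and 0.919). S100a10 was followed by Adam15, Erp29 and Akr1a1 (0.928 to 0.956), and S100a11 by Dbnl, Chmp2a and Stx7 (0.968 to 0.980).

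The genes of the intracellular partners were expressed, and none passed the test. Of 12 listed, 11 were tested, 0 rose and 0 fell past the adjusted threshold, 7 had higher and 4 lower means, and their median log2 fold change was 0.04 against 0.004 over all genes. Anxa1, the partner of S100a11, was at 453 to 508 FPKM in control and 459 to 532 FPKM in stimulated libraries. Anxa2, the partner of S100a10, was at 212 to 247 and 213 to 229 FPKM, and the S100a10 to Anxa2 log2 ratio was -0.50 ± 0.31 (SD, n = 3) in control and -0.30 ± 0.25 in stimulated libraries (exact permutation p = 0.5). This difference of 0.19 was 0.052 without stimulated replicate 2, 0.076 without control replicate 2, 0.37 without control replicate 1, 0.30 without stimulated replicate 3 and 0.49 with reference transcripts only. S100a11 to Anxa1 gave 0.51 ± 0.04 and 0.60 ± 0.15 (exact permutation p = 0.6), a difference of 0.086 that was 0.00078 without stimulated replicate 3 and 0.15 without stimulated replicate 1. Myh9, the myosin heavy chain bound by S100a4, was at 86.5 to 95.7 and 90.2 to 96.0 FPKM, and Cacybp was at 28.6 to 34.3 and 28.0 to 42.9 FPKM.

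Groups without overlap were found for 4 of these 11 partner genes, against 15.9% of all genes. Ahnak, the giant scaffold that S100a10 and annexin A2 anchor under the membrane, was at 94.97, 89.9 and 85.3 FPKM in control and 76.3, 76.5 and 74.5 FPKM in stimulated libraries. Its log2 fold change was -0.25 with a 95% interval of -0.47 to -0.02 and an adjusted p of 0.496, which became 0.0011 when scaled fragments replaced FPKM. Anxa6 was also lower (-0.18, adjusted p = 0.649), and Anxa5 (0.21, adjusted p = 0.429) and Tpm1 (0.28, adjusted p = 0.582) were higher, without passing the test.

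Among the receptors and adaptors through which extracellular S100 proteins signal, Cd14 rose. The lipopolysaccharide co-receptor gene was at 112.5, 123 and 118.5 FPKM in control and at 198, 184 and 168 FPKM in stimulated libraries, all above the controls. Its log2 fold change was 0.63 with a 95% interval of 0.42 to 0.85, and the adjusted p from limma was 0.0388. The direction held in all 19 alternatives, but 9 of them kept the call, and it was lost with any 1 library left out (adjusted p = 0.0570 to 0.202). Of 13 listed genes 11 were tested, and Cd14 was the 1 that passed, with a median log2 fold change of 0.02 over the list.

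Tlr4, the signalling receptor that works with Cd14, was at 30.5, 28.3 and 27.3 FPKM in control and 26.2, 20.4 and 17.5 FPKM in stimulated libraries. All 3 stimulated libraries lay below the controls, with a log2 fold change of -0.44 and an adjusted p of 0.527. The adaptor gene Myd88 was higher without overlap (0.30, adjusted p = 0.555, and -0.16 with reference transcripts only) and Alcam lower (-0.40, adjusted p = 0.423). The scavenger receptor gene Cd36 was at 533 to 647 and 514 to 538 FPKM, Bsg, the gene of basigin, at 180 to 197 and 187 to 200.4 FPKM, and Ager was listed at 0 in every library.

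**Figure D5:**
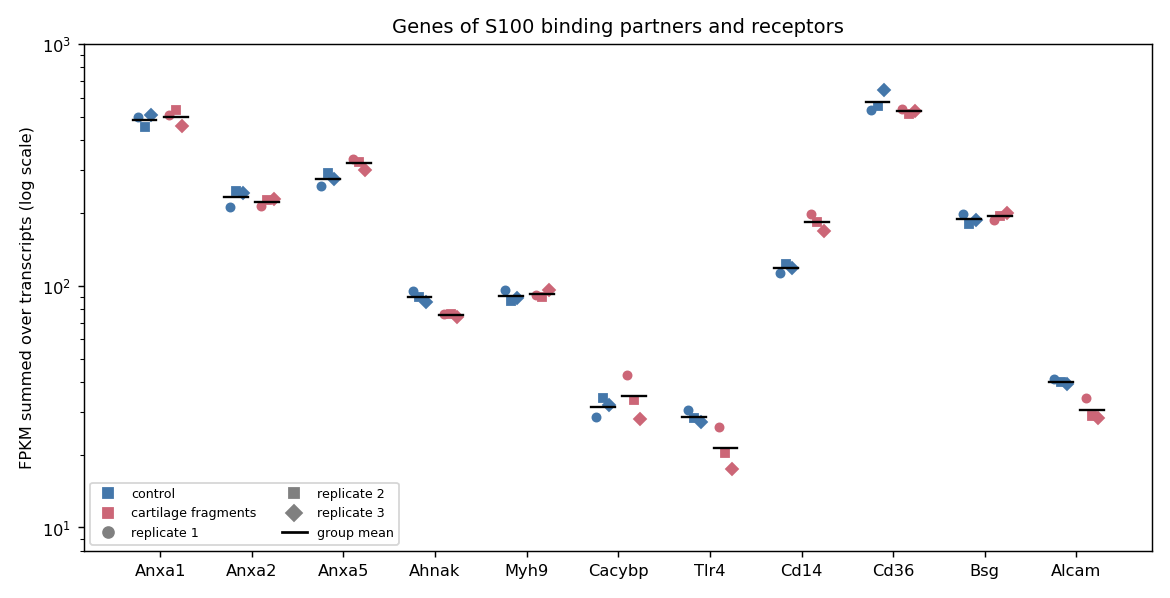
FPKM on a log axis of 11 genes that encode S100 binding partners or receptors, 1 point per library and a bar at the mean of each group. Cd14 is at 112.5 to 123 FPKM in control and 168 to 198 FPKM in stimulated libraries, and Ahnak, Tlr4 and Alcam lie lower in all 3 stimulated libraries.

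The plasminogen genes tied to S100a10 were 7, of which 5 were tested and 0 passed, with a median log2 fold change of -0.02. Serpinb2, an inhibitor of plasminogen activators, was lower without overlap at 9.49 to 9.82 against 12.9 to 13.8 FPKM (log2 fold change -0.45, adjusted p = 0.488). Of the 4 genes of the release route that uses S100a13, Il1a alone was tested, at 0.735, 0 and 1.54 FPKM in control and 5.32, 2.38 and 2.45 FPKM in stimulated libraries (adjusted p = 0.527).

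Other EF-hand genes gave a comparison within the same type of protein. All 12 listed were tested, 10 with higher and 2 with lower means, 0 passed, and the median log2 fold change was 0.22 against -0.10 for the 8 S100 genes. Aif1, an EF-hand protein of activated macrophages, was at 46.5, 30.1 and 42.5 FPKM in control and 72.6, 92.5 and 64.9 FPKM in stimulated libraries, a log2 fold change of 0.95 with a 95% interval of 0.49 to 1.42 and an adjusted p of 0.129 (0.0249 with scaled fragments). Efhd2 was also higher without overlap (log2 fold change 0.12, adjusted p = 0.661).

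Some markers of cell state moved between the same groups. Of 9 macrophage genes 2 rose, against 0.308% of all genes called higher. They were Adgre1, from a mean of 365 to 549 FPKM (adjusted p = 0.00965), and Cd14. C1qa and Itgam were also higher without overlap (adjusted p = 0.129 and 0.181), which made 4 of the 9, against 9.04% of all genes. The other macrophage genes overlapped, with log2 fold changes from -0.008 in Lyz2 to 0.56, and Csf1r was at 0.009. The call of Adgre1 held in 14 of 19 alternatives and its direction in all. Of 6 monocyte genes 5 were tested, 1 with a higher and 4 with lower means, and the median log2 fold change was -0.31. The higher one, Ly6c2, rose from 20.3 to 37.6 FPKM in control to 87.6 to 132 FPKM in stimulated libraries (adjusted p = 0.0191). That call was kept by 13 of 19 alternatives, and reference transcripts alone turned the log2 fold change to -1.41. Ccr2 was lower without overlap (log2 fold change -0.78, adjusted p = 0.221), and F13a1 (-0.31), Vcan (-0.35) and Chil3 (-0.09) were lower with overlap. The osteoblast and fibroblast list summed to 199 to 213 FPKM in control and 124 to 145 FPKM in stimulated libraries, with Col1a1, Col1a2 and Postn lower without overlap (adjusted p = 0.0849, 0.290 and 0.0529). Dcn, the other tested gene of that list, was higher with overlap (log2 fold change 0.28). The part of these cell types in the S100 values was not tested.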

How the data were processed

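RNA-seq libraries of 3 control and 3 stimulated BMM cultures were used. The authors mapped paired 100-base reads to mm10 by TopHat and Bowtie (versions not given in the sources used here) and estimated abundance by Cufflinks, library by library. The deposited values are FPKM per transcript, and whether TMM had been applied to them is unknown. The deposited coverage is the read depth beside each FPKM, and with the read length it gave the fragments per library and gene. Among low values of single-transcript genes, 95.8% to 97.04% lay within 0.1 of a whole fragment in the libraries other than control replicate 1. The lengths behind these numbers were set in control replicate 1, so its share of 100% was fixed in advance. Counting error alone is covered by fragment numbers. The FPKM of all transcripts of a symbol were added up, and assembled transcripts took the symbol of their gene identifier where it held only 1 symbol. The rule for the 8 genes counts only transcripts that carry the symbol, and this differs from the sum in S100a8 of control replicate 1 alone. Start positions had 1 added.

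Genes averaging 1 FPKM or more were compared on log2(FPKM + 0.1) by limma 3.58.1 (eBayes, trend and robust settings on) in R 4.3.3. Tests were two-sided, and p was adjusted by Benjamini-Hochberg over all 10393 genes at a threshold of 0.05. Fold changes are on that scale and understate those of low genes. Ratios were compared by exact permutation with scipy 1.17.1. The procedure was tested on simulated data. The simulated fragment numbers had the same extra spread in every gene and no shift with transcript length, so such effects were not covered. The members, lists, alternatives and the naming rule were chosen with earlier results of these data known. The rule names every member, list genes that passed, did not overlap between groups or are direct partners, the nearest tested genes on the chromosome, and the 3 genes with the closest pattern. Other marker genes given as examples of a level (Lyz2, Csf1r, Cd68, Acan, Ngp, Camp, Ltf, Cxcr2, Retnlg, Csf3r, Elane, Mpo, Prtn3 and Ctsg) were picked with their values in view. The closing section gives the effect of another pseudocount, filter, scaling, moderation, transcript choice, status, unit, replicate block or set of libraries. The 95% bounds of Cufflinks were not used as errors, since 4 members lay outside their own bounds in 3 to 5 libraries. Control replicate 1 differed from the other libraries here. None of its values lay outside their bounds, against 1.04% to 1.17% elsewhere. None of its transcripts had a status other than OK, against 770 to 795 elsewhere. The reason was not tested. Protein sequences were not analysed here, and some genes that the rule names are not reported here.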

Additional observations from a re-analysis of the deposited data

How the results depend on the processing

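No alternative brought a member past the threshold. Leaving out 1 library each in turn moved the log2 fold change of S100a1 between -0.28 and 0.028, of S100a4 between -0.26 and 0.011, of S100a10 between -0.029 and 0.23 and of S100a13 between -0.28 and 0.15. S100a6, S100a8, S100a9 and S100a11 kept their sign in all 19 alternatives, with ranges of -0.28 to -0.080, 0.093 to 0.41, -0.40 to -0.096 and 0.055 to 0.17. The count of all genes past the threshold, 38, was 18 without trend and robust moderation, 19 with reference transcripts only, 227 with scaled fragments, and 8 to 30 with 1 library left out, the lowest without stimulated replicate 1. The cause was not tested. With the replicate number as a block the count was 18, no member passed and S100a8 had the lowest adjusted p of the 8 at 0.535. Same-numbered libraries correlated at -0.079, 0.18 and 0.099 in their deviations over 3409 genes. Control replicates 2 and 3 correlated best with the stimulated replicate of their own number, and control replicate 1 with stimulated replicate 3 (0.21). These values do not settle a pairing and the study names none, so the numbers were not taken as pairs. The median of the intracellular partner list was -0.014 after quantile normalization. The median of the receptor list, 0.02, was -0.012 with equal totals, -0.0098 after quantile normalization, -0.071 with scaled fragments, -0.0046 with centring by transcript length (chosen after seeing the data) and -0.089 to 0.045 with 1 library left out. With 1 library left out, also chosen after seeing the data for the ratios, the S100a6 to S100a4 difference ran from -0.24 to 0.16 that of S100a13 to S100a1 from -0.15 to 0.37, that of S100a10 to Anxa2 from 0.052 to 0.37, that of S100a11 to Anxa1 from 0.00078 to 0.15 and that of S100a8 to S100a9 from 0.26 to 0.63. Of the partner and marker genes named, Anxa1 turned to -0.024 after quantile normalization, -0.012 with centring by length and -0.012 to 0.099 with 1 library left out, Myh9 to -0.014 after quantile normalization, Bsg to -0.0046 with centring by length, Cacybp ran from -0.037 to 0.27 with 1 library left out, and with reference transcripts only Ly6c2 was -1.41 and Myd88 -0.16. Scaled fragments brought Ahnak, Aif1, C1qa, Itgam, Col1a1, Col1a2 and Postn past the threshold, in the direction given, and Postn also passed with pseudocount 1, with a mean of 5 FPKM or more and without stimulated replicate 3 (adjusted p = 0.0465, 0.0383 and 0.0491). Depth limited S100a13 most, with 11 to 20 estimated fragments per library.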
